A study of Homo sapiens with 6 samples.

Results

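The kinesins are the subject here: every gene of the deposited gene table whose symbol is KIF or KIFC followed by a number and, in some cases, a letter from A to C. The rule used the symbol and no measured value, and it found 40 of the 17579 genes. They fall into 11 mitotic kinesins, 17 transport kinesins and 12 others. Members and classes were chosen with earlier results of these data known. The cells were LP-1, an established line from human multiple myeloma with the t(4;14) translocation. RNA-seq compared 3 libraries of cells infected with a virus carrying a guide RNA against AURKA with 3 libraries of cells that received a non-target control. AURKA encodes the mitotic kinase Aurora A. Both groups were grown in medium with 10% serum, both had received virus, and they differ in the guide. The labels do not say whether the edited cells were a pool or 1 clone, how long after infection they were collected, or whether replicates came from separate cultures. The p-values therefore rest on the spread among these libraries, which may be only technical.

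Kinesins are motor proteins that turn the energy of ATP into movement along microtubules or into the removal of tubulin from microtubule ends. Mitotic kinesins are made mainly in G2 and M phase, and they build the spindle, move chromosomes and complete cytokinesis. Transport kinesins carry vesicles, organelles and RNA through the cytoplasm in and out of division. Aurora A acts at the centrosomes and on spindle microtubules during the same stage of the cell cycle as the mitotic motors.

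The targeted gene was checked first. AURKA had normalised read counts of 189.1, 192.2 and 194.8 CPM (read counts scaled to library size, with TMM factors) in control replicates 1 to 3, and of 112.8, 119.4 and 112.7 CPM in guide replicates 1 to 3. The groups did not overlap, and AURKA fell by 0.74 on the log2 scale (SE 0.0488, edgeR quasi-likelihood adjusted p = 1.55e-06). About 60% of the transcript level therefore remained (fold 0.599), and RNA does not report on the reading frame. Libraries held between 17724174 and 18523594 expected counts, of which the kinesins took 0.176% to 0.191%. Of 10 plasma cell markers in the table, 9 had a mean of at least 1 CPM, and their summed level was 4546 to 4776 CPM in control and 4410 to 4482 CPM in guide libraries. Markers of T and NK cells summed to 1.24 CPM at most, and those of erythroid, myeloid, stromal and epithelial cells to 6.11 CPM at most. Libraries also differed in how read counts followed the GC content of transcripts. The slope of a library's log2 deviation per 10 percentage points of GC was 0.0449, 0.113 and -0.0553 in control replicates 1 to 3, and 0.0078, -0.0464 and -0.0638 in guide replicates 1 to 3. Control replicate 3 lay among the guide libraries on this measure.

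Of the 40 kinesins, 32 passed the expression filter and were tested. The 8 that did not (KIF1A, KIF4B, KIF5C, KIF17, KIF19, KIF25, KIF26A, KIF26B) had at most 10 expected counts in any library, and KIF25 had 0 in all 6. A count of 0 allows up to 0.162 to 0.169 CPM in a library of this depth (3 counts, counting error only). KIF1A, KIF5C and KIF17 are neuronal or ciliary motors, and KIF4B is a near-identical copy of KIF4A whose reads the counting could split between the 2 genes.

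Levels were compared between genes as FPKM, which the authors scaled by transcript length and library size. KIF22, a chromokinesin that pushes chromosome arms away from the spindle poles, had the highest level, 81.4 ± 3.90 FPKM in control libraries (SD, n = 3). KIFC1, a minus-end motor that focuses spindle poles and gathers extra centrosomes, followed with 47.7 ± 1.61 FPKM. KIF2C, a microtubule depolymerase at centromeres, had 37.2 ± 1.06 FPKM. The next in order was the transport motor KIF1C with 26.2 ± 2.23 FPKM. KIF11, KIF20A, KIF23 and KIF5B had 22.8 ± 2.19, 21.4 ± 0.753, 21.2 ± 2.61 and 21.1 ± 2.43 FPKM, so their means lay close together. KIF11, with 23.5, 20.4 and 24.62 FPKM in control replicates 1 to 3, was nonetheless above KIF23 and KIF5B in each. KIF23 had 20.15, 19.27 and 24.17 FPKM there, and KIF5B 21.71, 18.45 and 23.2 FPKM. KIF20A, with 20.61, 21.54 and 22.1 FPKM, was above KIF11 in control replicate 2 only. Mitotic kinesins reached down to 6.87 ± 0.396 FPKM (KIF4A), while the ubiquitous kinesin-1 KIF5B was the most abundant transport motor after KIF1C.

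**Figure D1:**
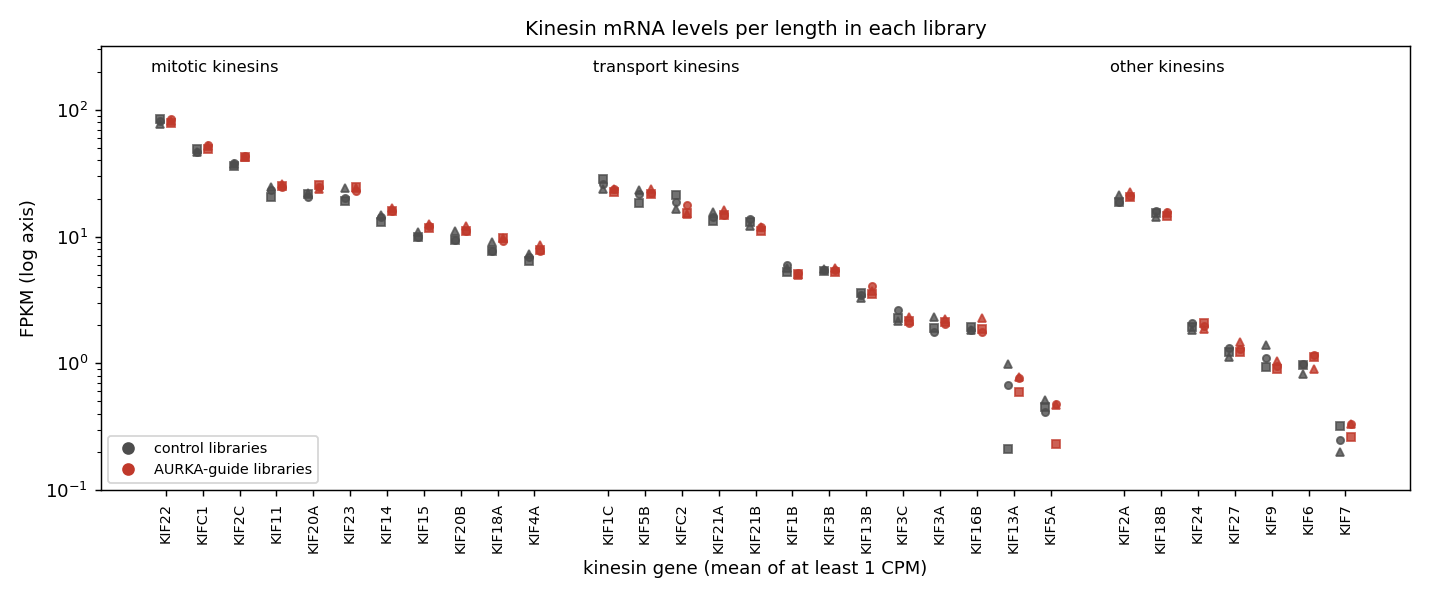
Level of each kinesin with a mean of at least 1 CPM, as FPKM on a log axis, with a point per library (control grey, AURKA guide red; circle, square and triangle for replicates 1 to 3) and genes ordered within class by control mean. KIF22, KIFC1 and KIF2C lead the order at 81.4, 47.7 and 37.2 FPKM in control libraries, and points of both groups lie close together for most genes.

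Promoter sequences were read for the 32 kinesins that the RefSeq promoter table (GRCh38.p14) holds, among them all 11 mitotic and 12 transport kinesins. Each window runs from 250 bases before to 50 bases after a gene's start. Many genes transcribed in G2 and M phase carry a cell cycle genes homology region (CHR), bound by the DREAM and MuvB complexes, together with CCAAT boxes, bound by NF-Y. The letters TTTGAA or their reverse complement TTCAAA were searched for the CHR, and CCAAT or ATTGG for the CCAAT box. The CHR letters were in the windows of 8 of 11 mitotic kinesins (72.7%), of 1 of 12 transport kinesins (8.33%) and of 18.2% of all 27305 genes in the table. CCAAT letters were in 9 of 11 mitotic (81.8%), 4 of 12 transport (33.3%) and 39.7% of all genes. Both were in 7 of 11 mitotic kinesins (63.6%), in 1 of 12 transport kinesins and in 7.26% of all genes. A match is a description of the letters and does not show a bound site. The stretches below lie directly before the start site, are written 5′ to 3′ on the gene's strand, and carry the CHR and CCAAT letters in capitals.
KIF11 (chr10:92593050-92593129, plus strand): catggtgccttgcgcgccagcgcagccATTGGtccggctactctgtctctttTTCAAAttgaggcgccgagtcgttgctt
KIF15 (chr3:44761714-44761793, plus strand): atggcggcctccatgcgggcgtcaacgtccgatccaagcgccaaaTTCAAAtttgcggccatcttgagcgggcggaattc
KIF18A (chr11:28108157-28108236, minus strand): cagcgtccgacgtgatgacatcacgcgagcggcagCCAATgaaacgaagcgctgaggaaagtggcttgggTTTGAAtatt
KIF23 (chr15:69414269-69414348, plus strand): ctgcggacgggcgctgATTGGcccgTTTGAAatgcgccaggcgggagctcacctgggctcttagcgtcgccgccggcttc
KIF4A (chrX:70290024-70290103, plus strand): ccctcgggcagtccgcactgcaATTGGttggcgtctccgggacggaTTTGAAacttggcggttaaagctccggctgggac
KIF20A (chr5:138179002-138179111, plus strand): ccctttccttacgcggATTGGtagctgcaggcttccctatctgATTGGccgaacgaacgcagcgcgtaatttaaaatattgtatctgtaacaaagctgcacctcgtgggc
KIF2C (chr1:44739757-44739836, plus strand): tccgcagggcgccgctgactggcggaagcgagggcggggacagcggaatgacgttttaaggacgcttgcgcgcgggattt
KIF1C (chr17:4997870-4997949, plus strand): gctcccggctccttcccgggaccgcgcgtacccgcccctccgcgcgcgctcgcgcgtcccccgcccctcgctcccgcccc
KIF5B (chr10:32056426-32056575, minus strand): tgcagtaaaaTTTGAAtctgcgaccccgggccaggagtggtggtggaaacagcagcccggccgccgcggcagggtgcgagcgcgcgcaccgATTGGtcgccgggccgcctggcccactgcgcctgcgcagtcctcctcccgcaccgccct
In KIF11, KIF18A, KIF23 and KIF4A, the CCAAT letters lie upstream of the CHR letters, which begin 28, 10, 55 and 34 bases before the start (positions -28, -10, -55 and -34). KIF20A has 2 CCAAT boxes (positions -94 and -67) and no CHR letters in its window, and KIF2C has neither. KIF1C, shown as a transport motor, has neither. KIF5B is the 1 transport kinesin with both, in the other order, with the CHR letters at position -140.

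The first question was whether motors of cell division and motors of transport were expressed differently after the AURKA guide. No kinesin passed the main test (edgeR adjusted p under 0.05, called for 2.03% of all genes tested), in either class. All 11 mitotic kinesins nevertheless lay on the higher side (50% of all genes tested did), with a median log2 fold change of 0.20 against -9.41e-05 over all genes. KIF22 did so by only 0.0011, and its sign changed in 5 of the alternative settings. The 11 genes were measured in the same 6 libraries and are not independent observations. In 7 of 11, every guide library was above every control library (10.5% of all genes), and 9 of 11 had an unadjusted edgeR p under 0.05 on the higher side (7.54% of all genes). The differences were small, at most 1.18-fold (KIF18A). In bulk RNA, more cells of a type or stage and more RNA per cell cannot be told apart.

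Of the motors that set the distance of the spindle poles, KIF15 had the largest difference. KIF11 (Eg5), which pushes the poles apart by sliding antiparallel microtubules, had 120.7, 106.1 and 125.8 CPM in control and 125.6, 129.1 and 132.4 CPM in guide libraries. Control replicate 3 reached the lowest guide library, so the groups overlapped, and the log2 fold change was 0.13 (SE 0.0617, edgeR adjusted p = 0.300). It was 0.07 without control replicate 2 and 0.18 without control replicate 3. KIF15, which can take over spindle assembly when KIF11 is inhibited, had 45.41, 45.3 and 47.8 CPM in control and 54.1, 51.51 and 55.99 CPM in guide libraries. All 3 guide libraries were above the controls, by 0.22 on the log2 scale (SE 0.0598, edgeR adjusted p = 0.0786). KIFC1, which opposes KIF11 by pulling toward minus ends, had 105.8, 111 and 101.8 CPM against 116, 107.5 and 112.8 CPM. Its groups overlapped, and the log2 fold change was 0.08 (SE 0.0541, edgeR adjusted p = 0.496).

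Motors of chromosomes and microtubule ends included the kinesin with the smallest p. KIF2C (MCAK), which corrects faulty attachments of chromosomes to the spindle, had 109.9, 105.8 and 107.4 CPM in control and 124.2, 122.5 and 122.1 CPM in guide libraries. The replicates of each group lay within a few CPM of each other and the groups were well apart, with a log2 fold change of 0.19 (SE 0.0484, fold 1.14, edgeR adjusted p = 0.0610). KIF18A, which dampens the oscillation of chromosomes at metaphase, had 26, 25.25 and 28.25 CPM against 30.96, 31.29 and 31.44 CPM. The guide libraries were nearly equal and above every control, at a log2 fold change of 0.24 (SE 0.0674, edgeR adjusted p = 0.101). KIF4A, a chromokinesin that shortens the microtubules of the spindle midzone with PRC1, had 31.35, 29.76 and 32.81 CPM against 35.23, 35.81 and 38.92 CPM. It was above the controls in all 3 guide libraries, with a log2 fold change of 0.23 (SE 0.0679, edgeR adjusted p = 0.119). KIF22, the most abundant kinesin, had 173.5, 184 and 164 CPM against 180.1, 169.8 and 171.9 CPM. Its groups overlapped fully, at a log2 fold change of 0.0011 (SE 0.0534, edgeR adjusted p = 0.994).

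The 4 motors of cytokinesis resembled each other in size of difference. KIF14, which recruits citron kinase to the midbody, had 100.6, 93.86 and 104 CPM in control and 113.4, 111.5 and 118.8 CPM in guide libraries. KIF20A (MKLP2), which brings the chromosomal passenger complex to the central spindle, had 66.71, 70.55 and 72.13 CPM against 80.57, 81.16 and 77.13 CPM. Every guide library of both genes was above every control, and the log2 fold changes were 0.20 (SE 0.0551, edgeR adjusted p = 0.0812) for KIF14 and 0.19 (SE 0.0552, edgeR adjusted p = 0.108) for KIF20A. KIF23 (MKLP1), the motor of the centralspindlin complex, had 62.33, 60.55 and 73.52 CPM against 72.86, 75.71 and 77.18 CPM. KIF20B, a motor needed to complete cytokinesis, had 60.22, 60.9 and 70.41 CPM against 71.49, 71.84 and 76.7 CPM. Control replicate 3 lay just above the lowest guide library in KIF23 and just below it in KIF20B, and the log2 fold changes were 0.20 for KIF23 (SE 0.0701, edgeR adjusted p = 0.181) and 0.20 for KIF20B (SE 0.0666, edgeR adjusted p = 0.158).

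**Figure D2:**
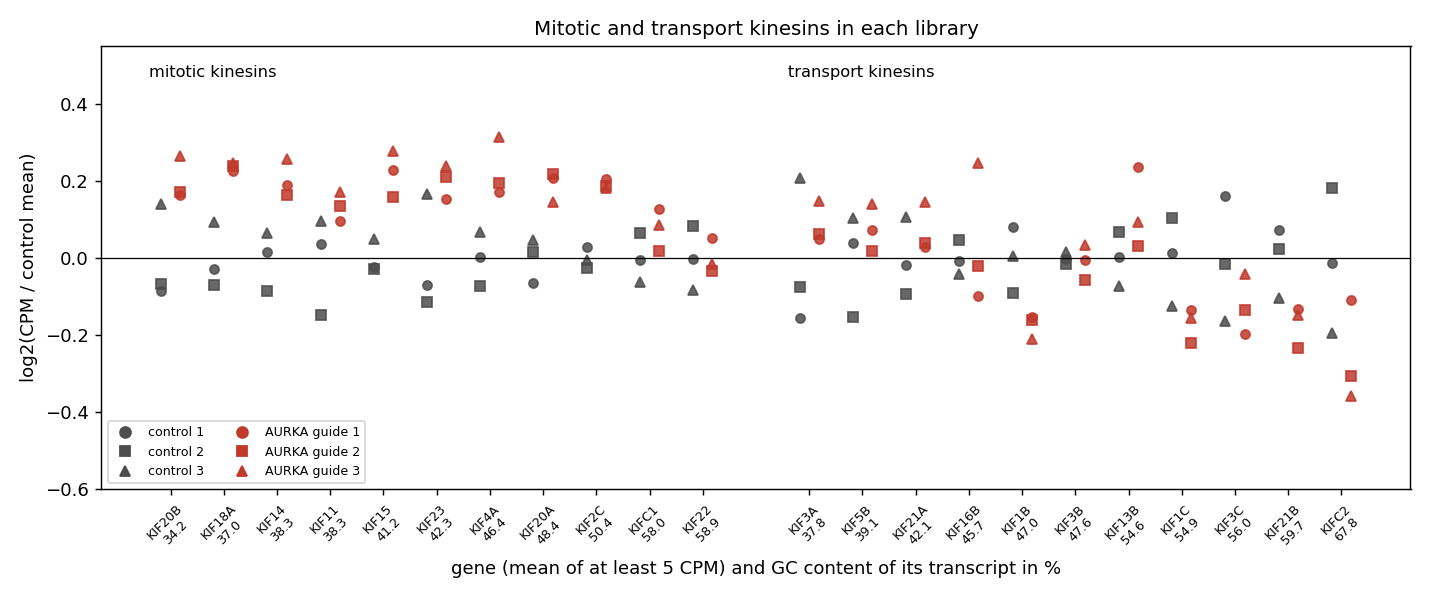
Log2 of CPM over the control mean for mitotic and transport kinesins of at least 5 CPM on average, ordered within class by transcript GC content (% below each name), with a point per library (control grey, AURKA guide red, shape by replicate). Over the class, the median of mitotic kinesins was 0.17 to 0.24 in the guide libraries, and that of the tested transport kinesins -0.10 to 0.02 over all 6 libraries.

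The count of mitotic kinesins called depended on 1 library, on the correction for GC content and on the model used. Without control replicate 3, 9 of 11 passed on the higher side (6.81% of all genes), all but KIF22 and KIFC1, with edgeR adjusted p from 0.00184 (KIF23) to 0.0270 (KIF11). Leaving out any other single library gave 0 of 11, and DESeq2 gave 1 (KIF2C, DESeq2 adjusted p = 0.0457, where 1% of all genes were called higher). A block for replicate number gave 3 of 11, KIF14, KIF15 and KIF2C (edgeR adjusted p = 0.0369, 0.0491 and 0.0474). With that block, 178 of 13138 genes were called higher. Mitotic kinesins had a median GC content of 42.3%, below the 48.5% of all genes tested.

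Transport kinesins were divided. Of the 14 tested, 6 lay on the higher and 8 on the lower side, with a median log2 fold change of -0.07. In 3 of 14 every guide library was below every control (10.2% of all genes), 4 of 14 had an unadjusted edgeR p under 0.05 on the lower side (8.58% of all genes), and none did on the higher side. DESeq2 called 0 of 14 (1.13% of all genes were lower). KIF1C, which carries vesicles from the Golgi apparatus and RNA to the cell periphery, had 154.9, 165 and 140.9 CPM in control and 140, 131.8 and 138 CPM in guide libraries. Control replicate 3 lay just above the guide libraries, and the log2 fold change was -0.17 (SE 0.0593, edgeR adjusted p = 0.184). KIF1B, a carrier of mitochondria and of precursors of synaptic vesicles, had 60.11, 53.36 and 57.04 CPM against 51.14, 50.8 and 49.16 CPM. All guide libraries were below the controls, at a log2 fold change of -0.17 (SE 0.0611, edgeR adjusted p = 0.181). KIF21B, a motor that also slows microtubule growth and is expressed in lymphocytes and neurons, had 129.3, 125 and 114.3 CPM against 112.2, 104.5 and 111 CPM. Its groups did not overlap, though control replicate 3 was near the guide libraries, and the log2 fold change was -0.17 (SE 0.0574, edgeR adjusted p = 0.165). KIFC2, a minus-end directed motor, had 62.01, 70.89 and 54.62 CPM against 57.98, 50.58 and 48.78 CPM. Here control replicate 3 fell within the guide libraries, and the log2 fold change was -0.25 (SE 0.0880, edgeR adjusted p = 0.180). Without control replicate 3, KIF1C, KIF21B and KIFC2 passed (edgeR adjusted p = 0.00399, 0.00528 and 0.00431), where 8.5% of all genes were called lower. Leaving out any other single library gave 0 of 14.

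The long-distance motors found in most cells did not pass the test. KIF5B, the ubiquitous heavy chain of kinesin-1, had 126.6, 110.9 and 132.4 CPM in control and 129.7, 124.9 and 135.8 CPM in guide libraries, with overlapping groups and a log2 fold change of 0.08 (SE 0.0641, edgeR adjusted p = 0.580). Its neuronal paralogue KIF5A had a mean of 2.51 CPM and a log2 fold change of -0.23 (SE 0.222), which was 0.0069 without guide replicate 2. The heterotrimeric kinesin-2 motor joins KIF3A with KIF3B or KIF3C and serves cilia and the late endosomal pathway. KIF3B had 33.9, 33.59 and 34.32 CPM against 33.8, 32.59 and 34.74 CPM, almost the same in all 6 libraries, with a log2 fold change of -0.0095 (SE 0.0618). KIF3A and KIF3C, with means of 12.9 and 12.6 CPM, had log2 fold changes of 0.09 (SE 0.0998) and -0.12 (SE 0.0973). KIF21A, the paralogue of KIF21B, had 91.41, 86.72 and 99.57 CPM against 94.41, 95.11 and 102.4 CPM, and its groups overlapped (log2 fold change 0.07, SE 0.0609). KIF13B and KIF13A, which move membrane cargo, had 0.12 (SE 0.0719) and 0.45 (SE 0.232), the second at a mean of only 1.71 CPM. KIF16B, a motor of early endosomes, had 0.05 (SE 0.105). The edgeR adjusted p of these 9 genes ran from 0.350 for KIF13A to 0.954 for KIF3B. KIFC3, below 1 CPM on average, was not resolved either (log2 fold change -0.57, SE 0.285, edgeR adjusted p = 0.341).

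The contrast of the 2 classes was also read within each library, as a description without a test. The summed level of the 11 mitotic kinesins was 902.6, 893.1 and 928 CPM in control and 1005, 987.7 and 1015 CPM in guide libraries. For the 14 tested transport kinesins the sums were 729.7, 717.5 and 703.7 CPM against 694.4, 660.5 and 696.2 CPM. The ratio of the sums, mitotic over transport, was 1.24, 1.25 and 1.32 in control and 1.45, 1.50 and 1.46 in guide libraries. All guide libraries were above all controls, and control replicate 3 was the highest control, as it was in its trend with GC content toward the guide libraries. The part of that trend in the ratio was not tested.

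**Figure D3:**
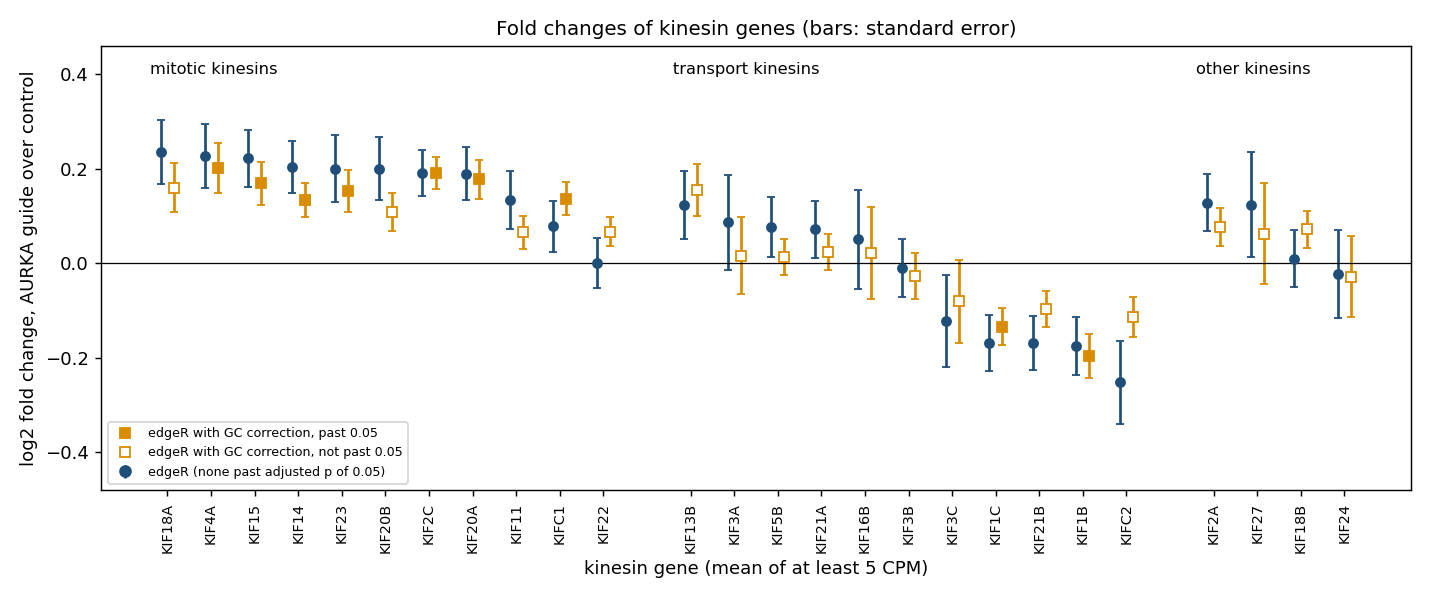
Log2 fold change, guide over control, of kinesins with a mean of at least 5 CPM, by class, from edgeR (circles) and from edgeR with the GC correction (squares, filled where the adjusted p is under 0.05), with bars for the standard error. No circle is past 0.05, and the filled squares are 7 mitotic kinesins above 0 and the transport kinesins KIF1B and KIF1C below 0.

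Of the 12 other kinesins, 7 were tested, and none passed the main test. KIF2A, a depolymerase of spindle poles and of neurites, had 76.01, 77.75 and 85.5 CPM in control and 85.71, 84.37 and 91.44 CPM in guide libraries. Only control replicate 3 reached the guide libraries, and the log2 fold change was 0.13 (SE 0.0599, edgeR adjusted p = 0.309). Without control replicate 3 it passed (edgeR adjusted p = 0.0284). KIF18B, which controls the length of astral microtubules in mitosis and is not among the 11 of the rule, had 62.98, 63.07 and 57.14 CPM against 63.34, 60.12 and 60.98 CPM. Its groups overlapped (log2 fold change 0.01, SE 0.0596, edgeR adjusted p = 0.949). The promoter window of KIF18B holds the CHR letters and 2 CCAAT boxes. A link between such letters and the differences was not tested. Among the lower expressed, the centriolar KIF24 and the ciliary KIF27, KIF6, KIF9 and KIF7 had means from 1.30 CPM (KIF7) to 12.2 CPM (KIF24). Log2 fold changes were -0.02 for KIF24, 0.12 for KIF27, 0.18 for KIF6, -0.28 for KIF9 and 0.27 for KIF7, with standard errors of 0.0934 to 0.253. The guide libraries lay above the controls in KIF6 and below them in KIF9, 1 each of the 7 tested (10.5% and 10.2% of all genes). Both genes are of about 3 to 4 CPM, with edgeR adjusted p = 0.565 for KIF6 and 0.428 for KIF9.

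The difference of a kinesin followed its GC content. Across the 32 tested genes, Spearman's rho of log2 fold change and GC was -0.54, and across all 12812 genes with a GC value it was -0.42. It was -0.61 within the 11 mitotic and -0.70 within the 14 transport kinesins. These correlations are across genes that share the same 6 libraries, and are given as a description. The median log2 fold change of all genes was 0.07 between 35% and 40% GC, 0.04 between 40% and 45%, and -0.10 between 60% and 65%. At 38.3% GC, KIF11 and KIF14 had 0.13 and 0.20, at 50.4% KIF2C had 0.19, and at 58.9% and 58.0% KIF22 and KIFC1 had 0.0011 and 0.08. The 11 mitotic kinesins thus lay above the median of genes of like GC content, KIF2C by more than KIF11.

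**Figure D4:**
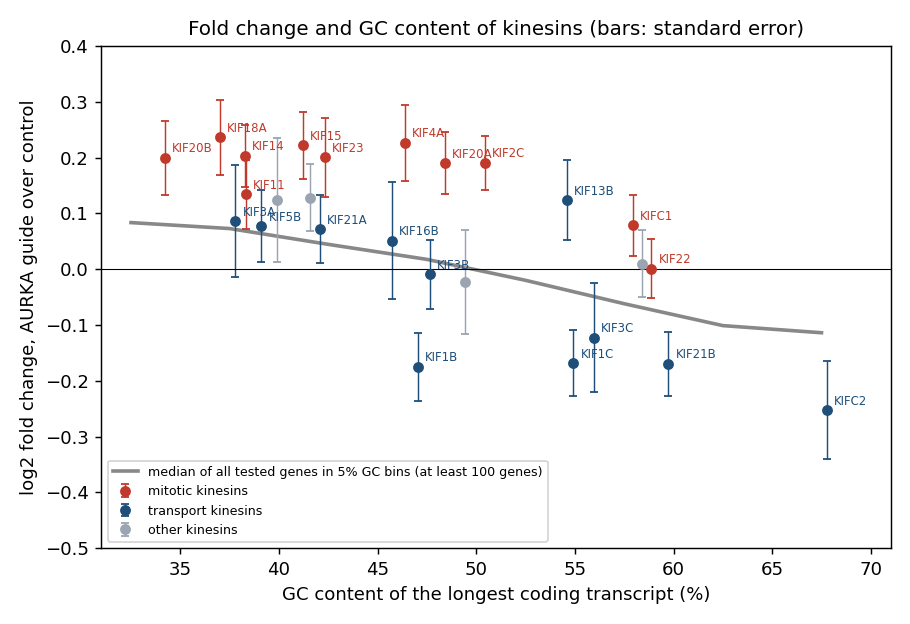
Log2 fold change, guide over control (bars: standard error), of kinesins with a mean of at least 5 CPM against the GC content of the longest coding transcript, coloured by class, with the median of all tested genes per bin of 5 percentage points as a grey line (bins of at least 100 genes). The line falls from 0.08 to -0.11, and the mitotic kinesins lie above it.

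After a correction that removes each library's trend with GC content, 7 of 11 mitotic kinesins rose (3.17% of all genes did). They were KIF2C (log2 fold change 0.19, edgeR adjusted p = 0.00117), KIF20A (0.18, 0.0111), KIFC1 (0.14, 0.0227), KIF4A (0.20, 0.0232), KIF14 (0.13, 0.0308), KIF15 (0.17, 0.0309) and KIF23 (0.15, 0.0424). KIF18A (0.16, 0.0762), KIF20B (0.11, 0.125), KIF22 (0.07, 0.223) and KIF11 (0.07, 0.299) did not pass. Transport kinesins KIF1B (-0.20, 0.0124) and KIF1C (-0.13, 0.0412) fell in the same fit (3.25% of all genes did), 2 of 14, and none rose. The correction removes any trend with GC over all genes, whatever its source, and each library weighs on its calls. After it, Spearman's rho of log2 fold change and GC was 0.22 within the 11 mitotic and -0.57 within the 14 transport kinesins. Across the 32 tested kinesins it was -0.26. With 1 library left out in turn as well, it called 1 to 6 of the 11 mitotic kinesins and 0 to 2 of the 14 transport kinesins. The fewest genes were called without guide replicate 3, 227 higher and 210 lower of 12943 tested. The most were called without control replicate 3, 429 higher and 477 lower of 12941 tested. KIF2C was called in all 6 of these fits, with edgeR adjusted p of 0.0025 to 0.0124 and log2 fold changes of 0.18 to 0.20. KIF20A and KIF1B were called in 4 of 6, KIF4A, KIF15 and KIFC1 in 2, and KIF14, KIF23 and KIF1C in 1. The fewest mitotic kinesins were left without control replicate 1 or guide replicate 1, where KIF2C alone passed, and KIF1B was lost without control replicate 1 or guide replicate 3.

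Genes that work with the motors were read from lists of partners. Among 20 partners of mitotic kinesins (regulators, cargo and genes of the same stage of the cell cycle), 18 lay on the higher side (50% of all genes did) and 4 rose (0.959% of all genes did): TOP2A, which disentangles sister chromatids, ASPM and HMMR, which organise spindle poles, and CDK1, the kinase of mitotic entry. Their log2 fold changes were 0.31 (edgeR adjusted p = 0.0081), 0.28 (0.00856), 0.27 (0.0461) and 0.25 (0.0312). CENPE is a kinesin-7 that links chromosomes to microtubule plus ends, and its symbol keeps it out of the rule. It had 70.6, 61.7 and 78.36 CPM in control and 80.62, 84.21 and 90.52 CPM in guide libraries, without overlap, at a log2 fold change of 0.28 (SE 0.0766, edgeR adjusted p = 0.0892). These genes are low in GC content as well, from 35.3% for CENPE to 39.1% for TOP2A. After the GC correction all 5 passed, with smaller log2 fold changes: 0.24 for TOP2A (edgeR adjusted p = 3.75e-05), 0.20 for ASPM (0.000749), 0.19 for HMMR (0.00195), 0.17 for CDK1 (0.00531) and 0.19 for CENPE (0.00681). In that fit 3.17% of all genes rose. NUSAP1 (0.17, edgeR adjusted p = 0.00608), INCENP (0.14, 0.0301) and TPX2 (0.10, 0.0423) also passed, and the remaining partners of the list did not. Leaving out single libraries kept the calls of TOP2A and ASPM in 4 of 6 fits and those of CDK1 and HMMR in 1 of 6, the fit without control replicate 3. The calls of TOP2A were lost without guide replicate 2 or 3 (edgeR adjusted p = 0.0626 and 0.0862), and those of ASPM without control replicate 1 or guide replicate 3 (0.0702 and 0.102).

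Of 24 tested partners and adaptors of transport kinesins, 7 lay on the higher and 17 on the lower side (50% of all genes were on the higher side). Of the 24, 1 fell (1.07% of all genes did), RAB11FIP5, which couples recycling endosomes to kinesin-2. Its values were 11.24, 11.2 and 10.63 CPM in control and 7.275, 8.339 and 7.209 CPM in guide libraries. The groups were far apart for this scale, at a log2 fold change of -0.53 (SE 0.0982, fold 0.690, edgeR adjusted p = 0.00863). The call was lost without control replicate 1 or guide replicate 3 (edgeR adjusted p = 0.0612 and 0.0744). KLC2, a light chain of kinesin-1, had a log2 fold change of -0.16 (edgeR adjusted p = 0.232). The opposing motor, cytoplasmic dynein with dynactin and its adaptors, had 13 members on the higher and 15 on the lower side of 28 tested, and none passed (edgeR). Every guide library was below every control in 7 of the 28 (10.2% of all genes) and above in 1 (10.5% of all genes). The unadjusted p was under 0.05 for 3 higher and 3 lower members of 28 (7.54% and 8.58% of all genes), and DESeq2 and the GC correction each called 1, DCTN2 (after the GC correction -0.18, edgeR adjusted p = 0.00313). The smallest p values were those of the dynactin subunits DCTN2 and DCTN3, at -0.19 for both (edgeR adjusted p = 0.0740 and 0.165), and of the adaptor HOOK1, at 0.26 (0.227).

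Transcript isoforms gave less precise values than genes. Of 187 kinesin transcripts in the transcript table, 99 were tested and 0 passed (edgeR, called for 0.00227% of all transcripts), 6 had an unadjusted p under 0.05 (3.85% of all transcripts), and DESeq2 called 4 (2.03% of all transcripts). Between replicates, the 49 kinesin transcripts of at least 5 CPM had a median SD of 0.345 in log2(CPM + 1), against 0.075 for their 23 genes. The smallest p at that level was that of the KIF18A transcript NM_031217.3, with 22.66, 21.36 and 21.94 CPM in control and 27.84, 26.88 and 28.1 CPM in guide libraries. All guide libraries were above the controls, at a log2 fold change of 0.33 (SE 0.0844, edgeR adjusted p = 0.665). KIF1B transcript NM_015074.3 followed, with 48.87, 43.35 and 48.2 CPM against 41.19, 40.37 and 40.01 CPM. KIF4A transcript NM_012310.4 had 31.67, 29.91 and 33.35 CPM against 35.51, 36.18 and 39.25 CPM. Both had the direction of their gene without overlap, at log2 fold changes of -0.21 and 0.22. The estimated split between isoforms could differ within a group: KIF21B transcript NM_001252102.1 had 40.19, 89.91 and 64.52 CPM in control and 67.16, 25.33 and 13.34 CPM in guide libraries, while NM_001252103.1 had 87.2, 33.99 and 49.4 CPM against 45.71, 79.14 and 97.02 CPM. The 2 isoforms were high and low in opposite libraries, in both groups.

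The authors' deposited table of changed genes lists 229 genes (1.3% of those in the gene table) and 0 kinesins. In the authors' deposited table of transcripts, 167 kinesin transcripts have an adjusted p (q value) and 4 have q under 0.05 (1.55% of all transcripts there). They are transcripts of KIF14 (XM_011510236.1, q = 7.05e-09), KIF18B (XM_011524390.2, q = 1.28e-07), KIF15 (XM_017006888.1, q = 1.96e-07) and KIF16B (NM_001199865.1, q = 7.28e-07). The KIF14 transcript had 164.1 expected counts in control replicate 2 and 0 in the other 5 libraries, and the KIF15 transcript had 130.5 in guide replicate 2 and 0 in the others. The first therefore rests on 1 control library and the second on 1 guide library. The KIF18B transcript had 97.28, 92.06 and 88.88 expected counts in the guide libraries and 0 in every control, and the KIF16B transcript 115.4, 43.69 and 115.2 against 0. Neither the KIF18B nor the KIF16B transcript passed in edgeR (edgeR adjusted p = 0.427 and 0.432). At the level of the gene, KIF18B and KIF16B did not pass (log2 fold changes of 0.01 and 0.05).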

How the data were processed

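RNA-seq libraries were made from total RNA of LP-1 cells and sequenced on a BGISEQ-500, per the labels' protocols. BWA, Bowtie2, RSEM and the build hg19 were used, per the submitters' processing notes; their versions and roles, and whether counting used strand, were not given in the sources used here. Deposited by the authors were expected counts per gene and transcript, which need not be whole (44.8% of gene values were not), and FPKM values, per the file headers. TPM values, also deposited by the authors, were not used. The authors' deposited comparison tables hold log2 fold changes and q-values.

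Expected counts were rounded and tested with edgeR 4.0.16 (R 4.3.3): filterByExpr (13138 genes), TMM scaling, quasi-likelihood F test, Benjamini-Hochberg adjustment over all genes, called under 0.05. Every fold change is log2 of guide over control. Transcripts were tested alike (43979). CPM uses TMM-scaled library sizes. The script was tested on simulated data. The alternatives blocked by replicate number, left out each library, or used other filters and scalings, DESeq2 1.42.0, or limma 3.58.1 on log2(FPKM + 1) or log2(FPKM + 0.1). A further one was a GC correction by a natural spline (5 degrees of freedom) used as an offset, with GC from the longest coding transcript in GENCODE 29 (12812 genes). The GC correction without each library was added after seeing the data. Members, classes and partner lists were chosen with earlier results of these data known.

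Named genes are AURKA, all mitotic kinesins, other kinesins of at least 1 CPM on average, and in each partner list the changed genes and the 3 of smallest p with at least 5 CPM; for transcripts, the 3 of smallest p with at least 5 CPM. A gene that this rule names is not reported here. CENPE, NUSAP1, INCENP, TPX2, KIFC3, the KIF21B isoforms and the low kinesins named by symbol were added after their values were seen. Reads are not independent molecules, and floors cover counting error only. KIF18A, KIF20A, KIF4A, KIF24, KIF7 and KIF9 overlap exons of expressed genes on the opposite strand, and KIF2A on the same strand, so their counts are uncertain. Promoters come from RefSeq (GRCh38.p14), with coordinates of that build only. NSD2 guide comparisons, and the kinesins KIF2B and KIF12, were not analysed here.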

Additional observations from a re-analysis of the deposited data

How the results depend on the processing

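With edgeR, 267 genes were called, against 822 with the GC correction, 896 with the GC correction and the replicate block together, 67 with limma on FPKM without a filter, 98 to 2034 with each library left out (2034 without control replicate 3), and with the GC correction 516, 576 and 906 without control replicates 1 to 3 and 479, 685 and 437 without guide replicates 1 to 3. The mitotic kinesins called were 0, against 7 with the GC correction (7 also with the block), 1 with DESeq2, 0 to 9 without single libraries and 1 to 6 without single libraries after the GC correction. Those calls were 1, 3 and 5 without control replicates 1 to 3, and 1, 6 and 2 without guide replicates 1 to 3. The transport kinesins called were 0, against 2 with the GC correction (2 also with the block), 0 to 3 without single libraries and 0 to 2 without single libraries after the GC correction. The median log2 fold change of mitotic kinesins was 0.20, from 0.16 to 0.23 without single libraries, and from 0.14 to 0.16 in the latter fits with the GC correction. The median of transport kinesins was -0.07 and did not keep its sign: -0.11 to 0.011 without single libraries, -0.09 to 0.0058 with the GC correction as well, -0.0092 without a filter, 0.020 and 0.028 with limma on log2(FPKM + 1) and log2(FPKM + 0.1), and -0.0026 with limma without a filter. Kinesin transcripts called were 0, and 4 with DESeq2.

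The labels do not say whether libraries of the same replicate number share a batch. The deviations of same-numbered libraries had correlations of 0.0514, -0.1047 and 0.0951, and only guide replicate 3 correlated best with its own number. With 3 libraries a group, these correlations cannot decide whether the replicates are paired. The highest correlation of guide replicate 1 was with control replicate 2, and that of guide replicate 2 with control replicate 3. The replicate block alone called 385 of 13138 genes, 178 of them on the higher side, and 3 mitotic kinesins (KIF14, KIF15, KIF2C), all higher. Of the uncalled kinesins, 11 changed sign in 1 to 7 settings each: KIF24 in 7, KIF22 in 5, KIF16B and KIF5B in 3, KIF18B and KIF5A in 2, and KIF21A, KIF27, KIF3A, KIF3B and KIF3C in 1. With 3 libraries a group and standard errors of 0.0484 to 0.0880 for the kinesins above 20 CPM, differences of the size seen here lay near what the test resolves, and those of kinesins below 5 CPM, with standard errors up to 0.285, were not resolved.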
